A study of Capra hircus with 36 samples.

Results

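The miR-23, miR-24 and miR-27 miRNAs come from a pair of gene clusters, the a cluster with miR-23a, miR-27a and miR-24 and the b cluster with miR-23b, miR-27b and miR-24. Members were chosen by name, taking every mature form of miR-23a, miR-23b, miR-24, miR-27a or miR-27b, from either arm of the hairpin (5p or 3p), with or without the authors' "conserve-" prefix. The rule found 8 of the 1391 mature miRNAs in the count files: chi-miR-23a-3p, chi-miR-23b-3p, chi-miR-23b-5p, chi-miR-24-3p, chi-miR-24-5p, chi-miR-27b-3p, chi-miR-27b-5p and conserve-chi-miR-27a-5p. It found no row of the name chi-miR-27a-3p, which was therefore not analysed here, so miR-23 is the one family whose a and b forms could be compared on the 3p arm.

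The miRNAs of each cluster are cut from one primary transcript, and both clusters are known for expression in endothelium, heart and skeletal muscle and for roles in vessel growth. miR-23 and miR-27 are known to repress inhibitors of angiogenic signalling, miR-27 also represses regulators of fat cell formation and lipid metabolism, and miR-24 is known for control of the cell cycle and of cell death. The mature 3p form of miR-24 is shared by both loci, so its reads cannot be assigned to a cluster. The mature forms of miR-23a-3p and miR-23b-3p are nearly identical, as are those of miR-27a-3p and miR-27b-3p, and reads that fit both could have been shared or split by the authors' counting, which makes their division uncertain. With no row of the name chi-miR-27a-3p, whether its reads were counted in the chi-miR-27b-3p row is not known.

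Small RNA was sequenced from adult females, over 3 years old, of the Tibetan Goat population at 3000 m and of the low-altitude Chuandong White Goat population at 600 m. From each population 3 goats gave longissimus muscle, heart, lung, liver, spleen and kidney, which makes 36 libraries in 12 groups of 3. Altitude and breed differ together and cannot be told apart. By the paper's account the populations also differed in location, body weight and form of rearing, stocking or nomadism against home rearing. Counts per library summed to between 7108635 and 14407748, so that 3 counts equalled 0.208 to 0.422 RPM (the count scaled to a library total of 1000000, the unit of every level given here), a limit that covers counting error only.

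The tissue labels were checked against known tissue miRNAs. In heart, chi-miR-208b-3p and chi-miR-499-5p were higher in 6 of 6 libraries than in any library of another tissue, and the same held for chi-miR-122-5p in liver, chi-miR-34c-5p in lung, chi-miR-206-3p in muscle and conserve-chi-miR-142-3p in spleen. It held in 5 of 6 libraries for chi-miR-133a-3p in muscle, and for 5 and 4 of 6 with conserve-chi-miR-142-5p and chi-miR-150-5p in spleen. Kidney was less clear, with chi-miR-10b-5p above every other tissue in 5 of 6 libraries, chi-miR-204-5p in 1 of 6, and chi-miR-194-5p highest in liver. The spleen library of high-altitude goat 1 differed from the other spleens, with 14654 RPM for the 3 spleen miRNAs together against 34706 to 66252, and 48320 RPM for the 3 kidney miRNAs found against at most 22302. The low sum followed conserve-chi-miR-142-5p, with 7168 RPM, while conserve-chi-miR-142-3p lay between 3491 and 4883 RPM in all spleens. The high sum was nearly all chi-miR-10b-5p, with 47868 RPM, a miRNA that reached 203782 RPM in muscle. Whether this spleen library held other tissue was not tested. Among kidneys, low-altitude goat 3 had the lowest sum of the 3 kidney miRNAs, 170253 RPM, and high-altitude goat 2 had 218526 RPM. The remaining kidneys had 316894 to 403462 RPM. Whether these kidney libraries differed in make-up was not tested.

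Heart had the highest summed level of these miRNAs, though not of each member. The 8 members together took 7.18% ± 0.696 (SD, n = 6) of the counts in heart, 3.48% ± 0.20 in lung, 2.63% ± 0.483 in liver, 2.39% ± 0.980 in kidney, 1.73% ± 0.705 in muscle and 1.55% ± 0.310 in spleen. The lowest heart library, with 6.64%, was above the highest library of any other tissue, a kidney library with 4.09%. chi-miR-27b-3p made up most of this share and had the highest count of the members in 36 of 36 libraries, with a mean of 26334 RPM ± 17651 (SD, n = 36), rank 9 of the 1391. chi-miR-24-3p followed with 3329 RPM ± 2425, chi-miR-23b-3p with 1252 ± 816 and chi-miR-23a-3p with 644 ± 430. The order 27b, 24, 23b, 23a held in 26 libraries, and in 7 others miR-23a-3p was above miR-23b-3p while miR-24-3p kept its place. The 5p arms were scarce, with means of 27.5 RPM ± 19.3 for chi-miR-27b-5p and 10.9 RPM ± 8.17 for chi-miR-24-5p.

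Between tissues, 6 of the 8 members passed an edgeR F test across the 36 libraries (5 degrees of freedom, adjusted p under 0.05), where 39.3% of all miRNAs passed. F was highest for chi-miR-27b-3p, with 28.6 (adjusted p = 4.15e-09), and lowest of the 6 for chi-miR-23a-3p, with 15.2 (adjusted p = 2.31e-06). With a goat left out F ran from 18.9 to 40.7 for chi-miR-27b-3p and from 8 to 14.1 for chi-miR-23a-3p, and both passed each time. The members that did not pass were chi-miR-23b-5p (F = 2.25, adjusted p = 0.154) and conserve-chi-miR-27a-5p (F = 1.68, adjusted p = 0.310), both close to 0 counts in most libraries. In bulk tissue, fewer cells of a type and less RNA per cell cannot be told apart, so these levels describe whole organs.

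Among the b cluster miRNAs, chi-miR-27b-3p had its lowest, median and highest values in heart at 53898, 59078 and 73279 RPM. Lung libraries ran from 23571 to 29322 with a median of 27005, and liver libraries from 16284 to 28415 with a median of 22348. Kidney ranged from 9815 to 33497 (median 17037), muscle from 9059 to 22611 (median 11990) and spleen from 9951 to 16076 (median 12893). No heart library overlapped another tissue, while the remaining tissues overlapped one another in part. On log2(RPM + 1), heart was above lung by 1.20 (two-sided exact permutation test of 6 against 6 libraries, p = 0.00216, the smallest this design allows, adjusted p = 0.00406 over 15 tissue pairs), and 8 of the 15 pairs passed. Muscle ranked above lung, kidney and liver instead of below them when the levels were scaled by TMM, edgeR's correction for composition, and heart remained first.

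chi-miR-23b-3p, from the same transcript, was also highest in heart, with 1985 RPM in the lowest library, a median of 2548 and 3757 in the highest. Its lung libraries lay between 795 and 1671 RPM (median 1465), kidney between 715 and 2409 (median 1003) and liver between 552 and 1204 (median 811). Muscle had a median of 588 and a highest value of 1764, and spleen lay between 457 and 943 (median 560). Only a kidney library, at 2409 RPM, reached into the heart range. Heart was above lung by 1.02 on the log2 scale (exact permutation test, adjusted p = 0.00812), and none of the later neighbours in the order heart, lung, kidney, liver, muscle, spleen differed beyond their spread, the lowest adjusted p being 0.246; TMM scaling moved muscle to the place after heart.

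The a cluster form had another order. chi-miR-23a-3p was highest in lung, with values from 925 to 1715 RPM and a median of 1557, followed by spleen with 475 to 939 (median 752) and heart with 465 to 691 (median 573). Kidney had 244 to 632 RPM (median 370), liver 301 to 469 (median 372) and muscle 237 to 348 (median 307). Only a spleen library, at 939 RPM, reached the lowest lung library. Lung exceeded spleen by 1.06 on the log2 scale (exact permutation test, adjusted p = 0.00722), spleen and heart were not told apart (adjusted p = 0.14), nor were kidney and liver (adjusted p = 0.922), and 10 of 15 pairs passed. With TMM scaling lung kept first place, liver took the last place from muscle, and 12 of 15 pairs passed. Both pairs not told apart on RPM then passed. Heart moved above spleen (exact permutation test, adjusted p = 0.0216) and kidney was above liver (adjusted p = 0.0354).

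The count ratio of miR-23a-3p to miR-23b-3p within a library, which no scaling of the library changes, set lung and spleen apart from the other organs. In lung its lowest, median and highest values were 0.883, 1.14 and 1.35, and in spleen 0.969, 1.02 and 1.49. In liver they were 0.267, 0.491 and 0.656, in muscle 0.197, 0.470 and 0.624, and in kidney 0.263, 0.348 and 0.441. Heart had 0.167, 0.214 and 0.299. The lung and spleen libraries lay above every library of the other tissues. At their upper end the heart libraries overlapped those of kidney and liver. The lowest muscle library, with 0.197, lay near the lower end of the heart range. As geometric means, the ratio was 1.12 in both lung and spleen, 0.465 in liver, 0.419 in muscle, 0.349 in kidney and 0.216 in heart.

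Of the 15 tissue pairs, 11 differed in this ratio by the exact permutation test, with lung above heart by 2.38 on the log2 scale, and spleen above liver by 1.26 (both adjusted p = 0.00406). Heart was below kidney by 0.69 (adjusted p = 0.00649). Lung and spleen did not differ beyond their spread (adjusted p = 0.955), nor did liver and muscle (adjusted p = 0.675) or muscle and kidney (adjusted p = 0.395). With the goat as a replicate block, in a sign-flip test whose smallest p is 0.0312, the ratio again passed in 11 pairs, while the levels of chi-miR-23a-3p, chi-miR-23b-3p, chi-miR-24-3p, chi-miR-24-5p, chi-miR-27b-3p and chi-miR-27b-5p passed in 0.

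**Figure D1:**
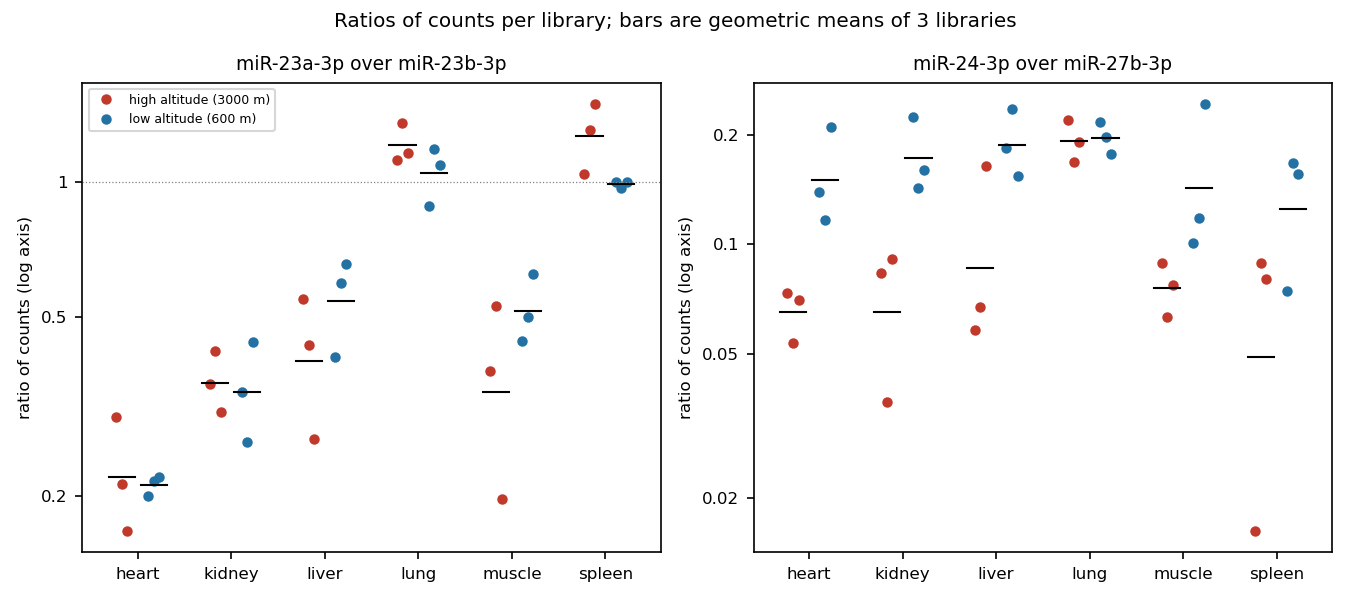
Count ratios within each library (log axes) of miR-23a-3p to miR-23b-3p, left, and of miR-24-3p to miR-27b-3p, right, by tissue, with 3 high-altitude (red) and 3 low-altitude (blue) goats per tissue and geometric means as bars. The left ratio lay between 0.883 and 1.49 in lung and spleen and between 0.167 and 0.656 in the other tissues; the right ratio had a geometric mean of 0.0651 in high-altitude and 0.151 in low-altitude heart.

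chi-miR-24-3p, shared by both clusters, was high in heart and in lung. Heart ran from 3257 to 11356 RPM (median 6029) and lung from 4599 to 5844 (median 5162). Liver ran from 1187 to 5024 (median 3245), kidney from 957 to 5374 (median 1869), muscle from 573 to 2888 (median 1589) and spleen from 261 to 2321 (median 1027). Lung was the tightest tissue, lying inside the heart range, while liver and kidney each had a library above the lowest lung library. Heart and lung did not differ beyond their spread (exact permutation test, adjusted p = 0.429), lung exceeded liver by 0.92 on the log2 scale (adjusted p = 0.0130), and 9 of 15 pairs passed. TMM scaling kept heart and lung in the first places and put muscle above liver and kidney.

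The 5p arms spread differently. chi-miR-24-5p was highest in heart, from 14.6 to 38.1 RPM with a median of 20.5, and lowest in spleen, from 2.05 to 8.09 with a median of 5.06. chi-miR-27b-5p was highest in heart and muscle, whose means on log2(RPM + 1) were 5.39 ± 0.75 and 5.22 ± 0.93 (SD, n = 6), and TMM scaling put muscle first. Heart and muscle did not differ beyond their spread for either arm (exact permutation test, adjusted p = 0.121 for chi-miR-24-5p and 0.817 for chi-miR-27b-5p). On RPM, 4 of 15 tissue pairs passed for chi-miR-24-5p and 1 for chi-miR-27b-5p; on TMM-scaled values 9 and 8 passed.

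As a share of both arms, the 5p arm of miR-27b averaged 0.129% ± 0.113 (SD, n = 36) and that of miR-24 averaged 0.497% ± 0.735. The miR-24 share is not that of a single hairpin, since its 3p reads come from both loci. Muscle had the highest median for miR-27b, with lowest, median and highest shares of 0.133%, 0.259% and 0.664%, against 0.0401%, 0.0658% and 0.129% in heart. No muscle library overlapped heart, but the highest liver and spleen libraries, with 0.198% and 0.149%, were above the lowest of muscle. The ratio of miR-27b-5p to miR-27b-3p, a measure chosen after seeing the data, was higher in muscle than in spleen, the next tissue, by 1.04 on the log2 scale (exact permutation test, adjusted p = 0.0244), and 8 of 15 pairs passed. That count was 3 without high-altitude goat 1 or without low-altitude goat 2, 5 without high-altitude goat 3 or without low-altitude goat 1, and 0 with the goat as a replicate block.

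The scarcest members were counted in part of the libraries only. conserve-chi-miR-27a-5p had counts in 12 of 36 libraries and 479 counts in all, of which 287 (33.0 RPM) were in the spleen of low-altitude goat 2, while the other low-altitude spleens and all high-altitude spleens had 0. A 0 beside at least 100 counts in the same group of 3 occurred in 10.9% of the miRNAs with the conserve- prefix and in 11.9% of the known goat miRNAs without it. chi-miR-23b-5p had 0 to 9 counts, in 31 libraries, and 109 in all. No fold change is given for these members.

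**Figure D2:**
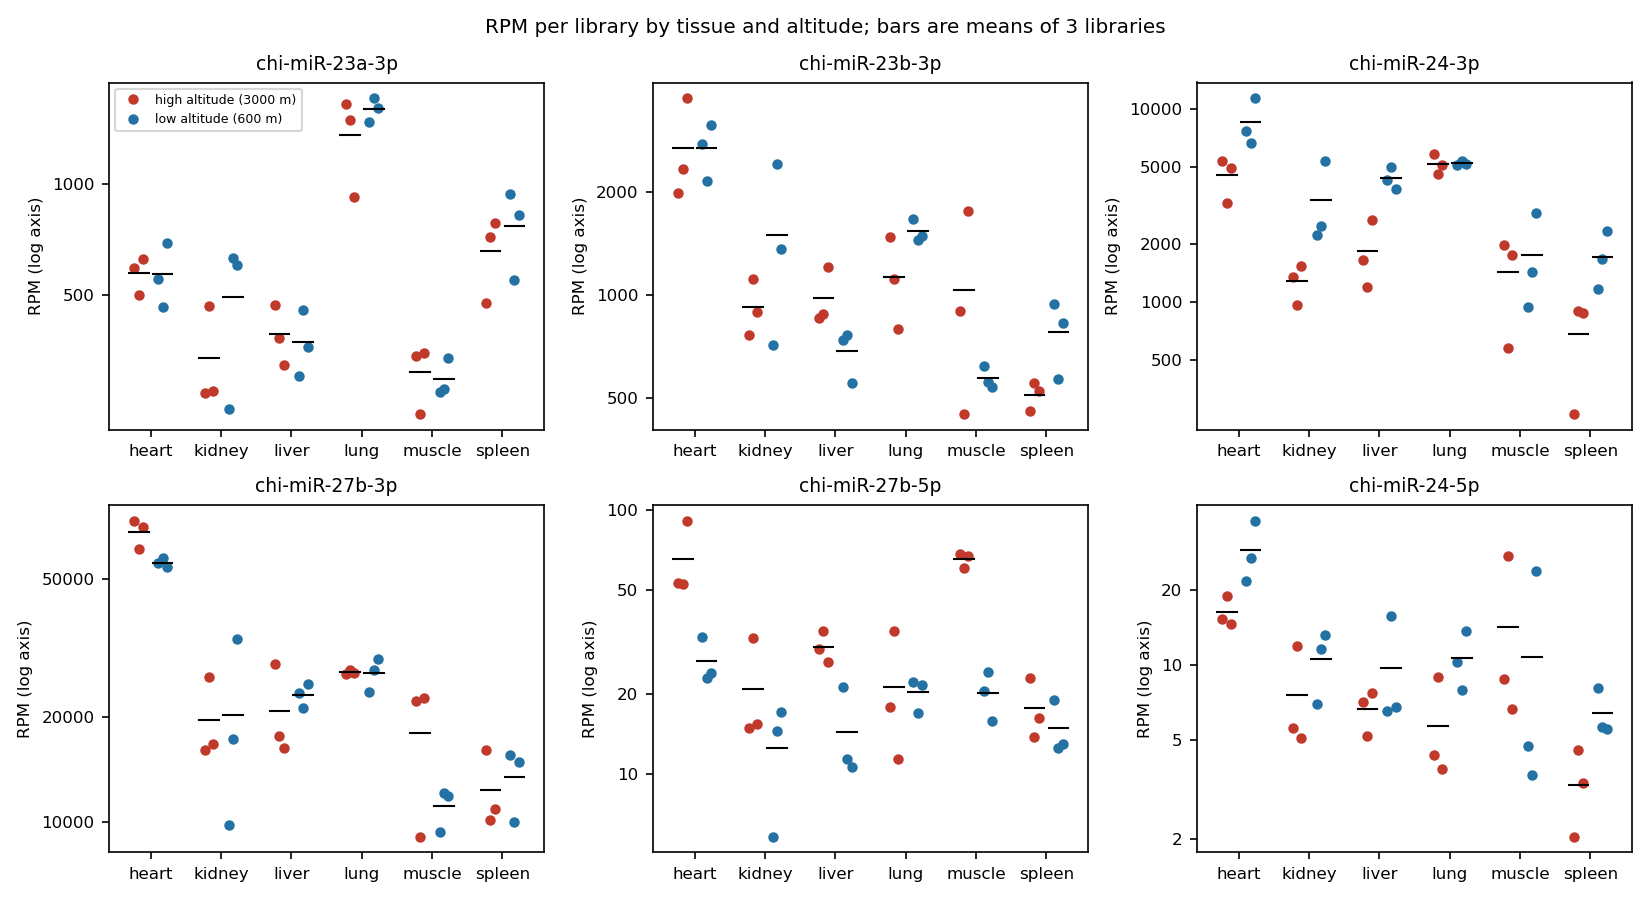
Level in RPM (log axes, not starting at 0) of the 6 members averaging at least 10 RPM, by tissue, with a point for each of 3 high-altitude (red) and 3 low-altitude (blue) goats and bars at the mean of 3. chi-miR-27b-3p lay between 53898 and 73279 RPM in heart, and chi-miR-23a-3p between 925 and 1715 RPM in lung.

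The comparison of altitudes within a tissue asked which miRNAs differ between goats living high and low. It was made with edgeR, and a miRNA was called when its adjusted p was under 0.05 and its absolute log2 fold change at least 1.5. Of the 8 members, 0 were called in heart, kidney, liver or lung, where 0% of all miRNAs were called, 0 in muscle, where 0.117% were called, and 0 in spleen, where 0.207% were called. At an unadjusted p under 0.05 edgeR had 3 members in heart (10.6% of all miRNAs), 1 in muscle (10.1%), 1 in spleen (8.27%), and 0 in kidney (7.40%), liver (5.95%) and lung (7.25%). DESeq2 called 1 member, chi-miR-27b-5p in muscle (3.18% of all miRNAs), and 0 in heart (3.60%), kidney (2.74%), liver (2.96%), lung (2.04%) and spleen (3.44%). Its members at an unadjusted p under 0.05 were 3 in heart (13.0%), 3 in spleen (13.0%), 1 in kidney (10.5%), 1 in liver (10.4%), 1 in muscle (11.3%) and 0 in lung (11.9%). All fold changes are high over low altitude, and the median log2 fold change of all miRNAs moved with the scaling, in heart from 0.10 with TMM to 0.27 with library size only.

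Without a call, several members still had altitude groups that did not overlap in RPM. Lower at high altitude in all 3 goats than in any low-altitude goat were 3 of 8 members in heart (background 6.68%), 3 in spleen (7.96%), 1 in liver (8.37%), 1 in kidney (5.90%), 0 in muscle (8.45%) and 0 in lung (9.12%). Higher were 2 of 8 in heart (13.4%), 2 in liver (3.33%), 1 in muscle (5.28%), 0 in spleen (6.41%), 0 in kidney (2.77%) and 0 in lung (3.52%). The heart count of lower members includes chi-miR-23b-5p, which had 3, 3 and 2 counts at high altitude against 9, 4 and 8, near the limit of 3 counts. The background is the share of all tested miRNAs whose groups did not overlap in that direction. Members of a cluster share a transcript and arms share a hairpin, so these counts are not independent of each other.

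chi-miR-24-3p had altitude groups that did not overlap in 4 tissues, the most of any member. Its heart levels were 5364, 3257 and 4961 RPM at high altitude against 7685, 6693 and 11356 at low altitude. Kidney had 1340, 957 and 1525 RPM against 2213, 2465 and 5374, and liver had 1646, 1187 and 2664 against 4298, 5024 and 3827. In these 3 tissues the groups did not overlap. The kidney of low-altitude goat 3, with the low sum of kidney miRNAs given above, stood above the rest. In spleen the values were 261, 897 and 877 RPM at high altitude against 1158, 1667 and 2321 at low altitude, again without overlap, the lowest being the spleen library of goat 1 noted above. Lung, with 5844, 4599 and 5135 against 5104, 5396 and 5189, and muscle, with 1969, 573 and 1745 against 940, 1434 and 2888, overlapped.

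The edgeR log2 fold change of chi-miR-24-3p was -1.09 (SE 0.29, adjusted p = 0.262) in heart and -1.47 (SE 0.52, adjusted p = 0.507) in spleen, where it was -1.13 without high-altitude goat 1. It was -1.11 (SE 0.53, adjusted p = 0.596) in kidney and -1.02 (SE 0.52, adjusted p = 0.518) in liver, or -0.73 and -0.60 without high-altitude goat 2. In lung it was 0.25 (SE 0.40), which turned to -0.01 with library size only and was 0.52 and 0.12 without high-altitude goats 2 and 3. In muscle it was 0.03 (SE 0.69), which turned to -0.03 with DESeq2 and -0.30 with library size only, and ran from -0.39 to 0.48 with a goat left out. Whether the altitude difference itself differed between tissues was tested as an interaction, in which 0 of 8 members passed against 0.216% of all miRNAs, with adjusted p = 0.803 for chi-miR-24-3p; at an unadjusted p under 0.05 it had 1 member, chi-miR-23b-3p (adjusted p = 0.692), and 6.69% of all miRNAs, and no other tool was run for it.

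Averaged over the 6 tissues of a goat, chi-miR-24-3p was 10.83, 10.49 and 11.18 on log2(RPM + 1) in the high-altitude goats and 11.41, 11.64 and 12.13 in the low-altitude goats. The groups did not overlap, and the difference was -0.90 (two-sided exact permutation test over 6 goats, p = 0.1, the smallest that 3 against 3 allows). How many of all miRNAs had goat means that did not overlap was not computed. The mean over tissues takes a replicate number as the same goat in every tissue. Deviations from group means correlated weakly between tissues of the same number, by a mean r of 0.07 over the tissue pairs (lowest -0.16, highest 0.26, in 308 miRNAs), so the data do not settle this, here or where the goat is a block.

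The passenger arm chi-miR-24-5p was also lower at high altitude in heart, with 15.4, 19 and 14.6 RPM against 21.9, 27 and 38.1. In spleen it had 2.05, 4.55 and 3.36 RPM against 8.09, 5.64 and 5.56. The groups overlapped in neither tissue, but did in kidney, liver, lung and muscle. The log2 fold change was -0.97 (SE 0.33, adjusted p = 0.371) in heart and -1.04 (SE 0.60, adjusted p = 0.507) in spleen, and over goats the difference was -0.45 (exact permutation test over 6 goats, p = 0.3), which was -0.69 without high-altitude goat 2 and -0.28 without low-altitude goat 3.

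chi-miR-27b-5p, the scarce arm of miR-27b, had the opposite direction. Muscle had 68.5, 60.5 and 67.3 RPM at high altitude against 20.7, 24.3 and 15.8 at low altitude. Heart had 52.9, 52.4 and 91.3 against 33.0, 23 and 24.1, and liver 29.8, 34.9 and 26.5 against 21.3, 11.4 and 10.6. The groups did not overlap in these 3 tissues, most widely in muscle. Kidney, with 14.9, 32.7 and 15.4 against 5.77, 14.5 and 17.2, overlapped by 1 low-altitude library, and the values of lung (18, 34.9 and 11.4 against 22.3, 17 and 21.8) and spleen (23, 13.8 and 16.3 against 19.1, 12.5 and 13.0) were mixed.

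In muscle the edgeR log2 fold change of chi-miR-27b-5p was 1.81 (SE 0.50, adjusted p = 0.413). DESeq2 gave 1.82 (SE 0.50, adjusted p = 0.0152), which is a call, and 1 edgeR fit over all libraries gave 1.88 (adjusted p = 0.0234), also a call; the edgeR adjusted p under the other scalings, the filter and the replicate block ran from 0.241 to 0.622. In heart the log2 fold change was 1.09 (SE 0.37, adjusted p = 0.370) and in liver 1.16 (SE 0.56, adjusted p = 0.518). Kidney had 0.84 (SE 0.38, adjusted p = 0.596) by edgeR and 0.92 (SE 0.23, adjusted p = 0.00360) by DESeq2, below the minimum fold change for a call. Over goats, chi-miR-27b-5p averaged 4.94, 5.16 and 4.86 on log2(RPM + 1) at high altitude against 4.27, 4.13 and 4.13 at low altitude, without overlap, a difference of 0.81 (exact permutation test over 6 goats, p = 0.1). The share of all miRNAs with goat means apart in this way was not computed.

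The abundant arm of the same hairpin, chi-miR-27b-3p, had 73279, 60762 and 70550 RPM in high-altitude heart and 55386, 57393 and 53898 in low-altitude heart, without overlap. Muscle had 22182, 9059 and 22611 RPM against 9319, 12118 and 11861, and kidney 16076, 26106 and 16777 against 9815, 17298 and 33497. High-altitude goat 2 was below every low-altitude muscle, and the kidney groups were mixed. The heart log2 fold change was 0.12 (SE 0.20, adjusted p = 0.775), which turned to -0.00 with the filterByExpr filter, -0.05 without low-altitude goat 3 and -0.14 in 1 fit over all libraries, and that of muscle 0.93 (SE 0.57, adjusted p = 0.490). Over goats the difference was 0.11 (exact permutation test over 6 goats, p = 0.5), and 0.01 to 0.23 with a goat left out.

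miR-27b-5p was also counted against its partner arm, a ratio chosen after seeing the data, for which no share over all miRNAs was computed. The count ratio of miR-27b-5p to miR-27b-3p in muscle was 0.00309, 0.00668 and 0.00298 at high altitude against 0.00222, 0.00201 and 0.00133 at low altitude. In liver it was 0.00105, 0.00198 and 0.00163 against 0.000910, 0.000535 and 0.000427, and in heart 0.000721, 0.000862 and 0.00129 against 0.000596, 0.000401 and 0.000448. Groups did not overlap in these tissues, nor in kidney and spleen. The log2 difference was 1.28 in liver, 1.08 in muscle, 0.94 in heart, 0.63 in kidney and 0.35 in spleen (exact permutation tests of 3 against 3, each p = 0.1, the smallest possible), and -0.07 in lung (p = 0.9). Muscle had 0.69 without high-altitude goat 2, spleen had 0.19 without low-altitude goat 3, and lung ran from -0.47 to 0.29 with a goat left out. Library totals cancel in the count ratio.

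The same kind of ratio, also chosen after seeing the data, set miR-24-3p against miR-27b-3p, members that leave the b locus on the same transcript. In heart it was 0.0732, 0.0536 and 0.0703 at high altitude against 0.139, 0.117 and 0.211 at low altitude. Kidney had 0.0834, 0.0367 and 0.0909 against 0.225, 0.143 and 0.160, and muscle 0.0888, 0.0632 and 0.0772 against 0.101, 0.118 and 0.244. These groups did not overlap, while in liver, spleen and lung they did, spleen of high-altitude goat 1 being far below the rest at 0.0162. The log2 difference was -1.40 in kidney, -1.21 in heart and -0.92 in muscle (exact permutation tests of 3 against 3, each p = 0.1), -1.35 in spleen (p = 0.3), -1.13 in liver (p = 0.2) and -0.03 in lung (p = 0.8). Spleen had -0.56 without high-altitude goat 1, muscle had -0.53 without low-altitude goat 3, and lung ran from -0.13 to 0.06 with a goat left out.

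Over the tissues of a goat this log2 ratio averaged -3.85, -3.82 and -3.27 at high altitude against -2.78, -2.66 and -2.47 at low altitude. The groups did not overlap, and the difference of -1.01, a 2.01-fold difference, had p = 0.1 in the exact permutation test over 6 goats. No share over other ratios was computed. Between tissues the ratio passed in 1 of 15 pairs, lung above spleen by 1.32 (adjusted p = 0.0325). It passed in 3 pairs without low-altitude goat 3, and in 0 without any other goat or with the goat as a replicate block. Since miR-24-3p reads come from both loci, the ratio does not measure the b transcript alone. Reads of miR-27a-3p may also lie in the miR-27b-3p row.

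The ratio of miR-23b-3p to miR-27b-3p, chosen in the same way, had geometric means from 0.0376 in liver to 0.0596 in kidney, and 0 of 15 tissue pairs passed the exact permutation test, 0 had an unadjusted p under 0.05, the lowest being 0.104, and no other tool was run. Over goats it differed between altitudes by -0.19 (exact permutation test over 6 goats, p = 0.4), and by -0.32 to -0.05 with a goat left out. Spleen was the tissue whose altitude groups did not overlap, with 0.0284, 0.0547 and 0.0483 at high altitude against 0.0606, 0.0571 and 0.0555, a log2 difference of -0.45 that was -0.16 without high-altitude goat 1.

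chi-miR-23b-3p itself had liver values of 857, 878 and 1204 RPM at high altitude against 739, 764 and 552 at low altitude. Spleen had 457, 553 and 526 RPM against 943, 568 and 827. Neither tissue overlapped between altitudes, and the directions were opposite. The log2 fold change was 0.70 (SE 0.43, adjusted p = 0.518) in liver, -0.65 (SE 0.31, adjusted p = 0.507) in spleen and 1.09 (SE 0.64, adjusted p = 0.490) in muscle, where the groups overlapped. Without high-altitude goat 3 it was 0.45 in liver and 0.41 in muscle. Heart had -0.18 (SE 0.31), which was 0.00 with library size only and -0.44 to -0.05 with a goat left out.

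chi-miR-23a-3p overlapped between altitudes in each of the 6 tissues. Its lung values were 1655, 1497 and 925 RPM at high altitude against 1476, 1715 and 1617 at low altitude, and its spleen values 475, 719 and 786 against 939, 550 and 824. High-altitude goat 3 was the low value in lung, and the spleen values were mixed. Its log2 fold changes ran from -0.42 (SE 0.32, adjusted p = 0.596) in kidney to 0.26 (SE 0.44, adjusted p = 0.757) in muscle. Kidney had -0.17 without low-altitude goat 2, muscle had 0.06 without high-altitude goat 1 and 0.56 without high-altitude goat 2, and that of heart, -0.16, turned to 0.01 with library size only.

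The ratio of miR-23a-3p to miR-23b-3p, which separated tissues, overlapped between altitudes in 5 of 6 tissues. In spleen it was 1.04, 1.30 and 1.49 at high altitude against 0.996, 0.969 and 0.996 at low altitude, without overlap, a log2 difference of 0.36 (exact permutation test of 3 against 3, p = 0.1). The log2 difference was -0.60 in muscle, -0.44 in liver and 0.21 in lung (each p = 0.3), and 0.07 in kidney and 0.05 in heart (each p = 0.9 in the exact permutation test). With a goat left out it ran from -0.92 to -0.21 in muscle, -0.67 to -0.15 in liver, 0.09 to 0.30 in lung, -0.12 to 0.26 in kidney and -0.17 to 0.25 in heart. Over goats it was -0.06 (exact permutation test over 6 goats, p = 0.8), and -0.15 to 0.09 with a goat left out.

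**Figure D3:**
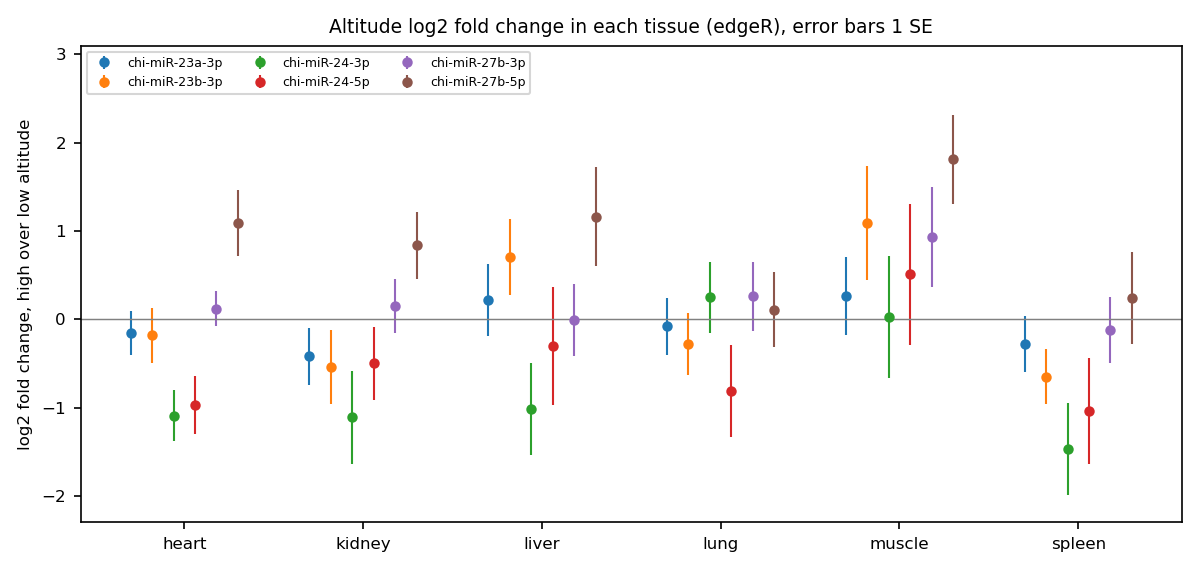
edgeR log2 fold change (high over low altitude) of the 6 members averaging at least 10 RPM in each tissue, from 3 libraries against 3, with bars of 1 SE. The values of chi-miR-24-3p run from -1.47 in spleen to 0.25 in lung (-0.01 there with library size only) and those of chi-miR-27b-5p from 0.11 in lung (-0.07 to 0.36 there with a goat left out) to 1.81 in muscle.

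Within groups, members varied together to different degrees, within a cluster and across clusters. Over deviations from the mean of each group of 3, in 36 libraries that share tissue, goat and depth, Pearson's r was 0.67 between miR-23a-3p and miR-23b-3p, 0.59 between miR-23a-3p and miR-27b-3p and 0.46 between miR-23b-3p and miR-27b-3p. It was 0.30 between miR-24-3p and miR-27b-3p and 0.35 between miR-24-3p and miR-23b-3p. The arms of a hairpin had 0.51 for miR-27b and 0.12 for miR-24. The correlation with miR-27b-3p was lower for miR-24-3p than for either miR-23 form, a difference that was not tested.

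In the RefSeq annotation of assembly ARS1.2, MIR23A and MIR27A lie within the span of ZSWIM4, and MIR23B, MIR27B and MIR24 within that of C8H9orf3. Names alone were used, since the reads were mapped to another version of the assembly.

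The miRNAs whose levels followed a member most closely were ranked by Spearman's rho over 36 libraries. The ranking covered 302 miRNAs averaging at least 10 RPM and left out the members themselves. Between members, rho was 0.78 for chi-miR-23b-3p with chi-miR-27b-3p and 0.75 for chi-miR-24-3p with chi-miR-27b-3p. It was 0.66 for chi-miR-23b-3p with chi-miR-24-3p. For chi-miR-23a-3p they were conserve-chi-miR-181a-5p (0.82), chi-miR-221-5p (0.79) and chi-miR-181c-5p (0.79). Outside the members, chi-miR-490-3p came first for both b cluster miRNAs, with 0.64 for chi-miR-23b-3p and 0.79 for chi-miR-27b-3p. The next outside the members were chi-miR-1468-5p (0.59) and chi-miR-30d-5p (0.58) for chi-miR-23b-3p. For chi-miR-27b-3p they were chi-miR-126-3p (0.60) and chi-miR-151-5p (0.59). For chi-miR-24-3p the first was a miRNA that the authors predicted in goat and numbered themselves (0.79), followed by chi-miR-7-5p (0.74) and chi-miR-126-3p (0.71), the last an endothelial miRNA. The a and b forms of miR-23 had no miRNA in common among their first 3.

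Other miRNAs known for roles in vessels or hypoxia were compared as a list, of which 22 of 25 names were found. The list was chosen with earlier results of these data known, so its counts are no independent check. edgeR called 0 of them higher at high altitude in any tissue and 1 lower, chi-miR-100-5p in spleen (log2 fold change -3.56, SE 0.39, adjusted p = 0.0268), where 0.207% of all miRNAs were called. That spleen count was 0 with the replicate number as a block or library size only, 2 with filterByExpr, and 0 to 1 with a goat left out. The heart count of 0 became 2 without high-altitude goat 2. The liver count of 0 became 1 with filterByExpr or library size only. The lung and muscle counts of 0 each became 1 in 1 fit over all libraries. At an unadjusted p under 0.05 edgeR had 7 in heart (10.6% of all miRNAs), 6 in spleen (8.27%), 5 in kidney (7.40%), 3 in muscle (10.1%), 2 in liver (5.95%) and 1 in lung (7.25%). DESeq2 called 3 in heart (3.60%), 2 in liver (2.96%), 2 in spleen (3.44%), and 1 each in kidney (2.74%), lung (2.04%) and muscle (3.18%). The list's median log2 fold change was 0.12 in liver, where that of all miRNAs tested was -0.09, 0.11 in spleen (all -0.03) and 0.02 in heart (all 0.10). Kidney had -0.21 (all -0.21), muscle -0.13 (all 0.22) and lung -0.24 (all -0.00).

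Markers of other cells had summed levels that did not overlap between altitudes in some tissues. In heart, where chi-miR-24-3p was lower and chi-miR-27b-5p higher at high altitude without a call, the summed level of 3 of 3 smooth muscle miRNAs was 181217, 116101 and 189857 RPM at high altitude against 69309, 76196 and 59216 at low altitude. chi-miR-143-3p was the most abundant of them, with a log2 fold change of 1.09 (adjusted p = 0.227), while chi-miR-145-5p had -1.58 (adjusted p = 0.395) and chi-miR-145-3p -0.70 (adjusted p = 0.480). The sums did not overlap, and none of the 3 was at 0 in any library. In muscle the same sum was 55414, 23120 and 51261 RPM against 17652, 21390 and 22435, without overlap, and followed chi-miR-143-3p (1.34), while chi-miR-145-5p (-0.50) and chi-miR-145-3p (-0.64) had the other direction. In spleen it was 357193, 402061 and 369238 against 415049, 568309 and 454002, also without overlap, and all 3 were lower, chi-miR-143-3p with -0.41, chi-miR-145-5p with -1.25 and chi-miR-145-3p with -2.04 (adjusted p = 0.0608). Lung had 150235, 154807 and 253904 RPM against 291175, 302499 and 265047, without overlap, and all 3 were lower there too, by -0.27, -0.75 and -0.29. In liver the sum of 3 of 4 erythroid miRNAs, led by conserve-chi-miR-486-5p, was 343, 6381 and 4283 RPM against 9100, 9952 and 8651, with chi-miR-144-3p and chi-miR-144-5p at 0 in at least 1 library. The part of these cells in the members' values was not tested.

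Endothelial miRNAs, of interest because both clusters are expressed in endothelium, overlapped between altitudes in their summed level in heart, kidney, liver, lung, muscle and spleen. In heart the sum of chi-miR-126-3p and chi-miR-126-5p, 2 of 2 found and neither at 0, was 12670, 11445 and 14748 RPM at high altitude against 9405, 8135 and 15354 at low altitude. Its arms had edgeR log2 fold changes of -0.52 (adjusted p = 0.480) for chi-miR-126-3p, the more abundant, and 1.82 (adjusted p = 0.314) for chi-miR-126-5p. In every tissue chi-miR-126-3p had a negative log2 fold change, from -0.39 in lung to -0.85 in kidney, without an edgeR call. That of chi-miR-126-5p was positive in each tissue except spleen (-0.20). In heart 5 of 5 leukocyte miRNAs, led by conserve-chi-miR-142-5p, summed to 3509, 2002 and 2818 RPM against 1924, 1885 and 1531, without overlap, with 3 of the 5 higher and conserve-chi-miR-142-3p (-1.07) and chi-miR-150-5p (-0.24) lower. The 5 of 5 epithelial miRNAs found also did not overlap there but were scarce, with sums of 12.9 and 49.5 RPM in high-altitude goats 2 and 3 and at most 12.4 RPM at low altitude. In muscle, where chi-miR-27b-5p was called by DESeq2, they summed to 20.7, 75.9 and 28.8 RPM against 14.1, 5.32 and 15.1, also without overlap, and all 5 were higher, with a median log2 fold change of 1.87 and 3 at an unadjusted p under 0.05 in edgeR (10.1% of all miRNAs). By mean, chi-miR-200b-3p was the most abundant of them in muscle (9.82 RPM, highest library 42.5). Its median of 5.29 RPM was below the 7.82 of chi-miR-200a-3p. chi-miR-200b-3p and chi-miR-200c-3p were at 0 in at least 1 muscle library. Their part in the value of chi-miR-27b-5p was not tested. edgeR called 0 of the endothelial, smooth muscle, leukocyte, erythroid and epithelial miRNAs in any tissue. At an unadjusted p under 0.05 it had, in the same order of lists, 1, 2, 1, 0 and 2 of them in heart (10.6% of all miRNAs), 0, 2, 0, 0 and 0 in spleen (8.27%), 0, 1, 1, 0 and 3 in muscle (10.1%), 0, 0, 2, 0 and 1 in lung (7.25%), 1, 1, 1, 0 and 1 in kidney (7.40%) and 0, 1, 1, 0 and 0 in liver (5.95%). DESeq2 called 1 endothelial and 1 epithelial miRNA in heart (3.60% of all miRNAs), 1 endothelial, 1 leukocyte and 1 epithelial miRNA in kidney (2.74%), 1 leukocyte miRNA in liver (2.96%) and 2 in lung (2.04%), 1 epithelial miRNA in muscle (3.18%) and 1 smooth muscle miRNA in spleen (3.44%). Low levels of other tissues' miRNAs also differed, such as the 2 heart miRNAs in kidney, which summed to 72.3, 62.4 and 170 RPM at high altitude against 4.05, 30.7 and 10.4 at low altitude, and their part in the members' values was not tested.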

How the data were processed

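Small RNA libraries of 6 tissues from 3 Tibetan Goat and 3 Chuandong White Goat animals were used, 36 in all. The authors deposited counts of reads per mature miRNA; their processing notes name CASAVA 1.8 and Bowtie, and their methods miRDeep2. Totals ran from 7108635 to 14407748. RPM scales the count to a total of 1000000. Altitude was tested within each tissue with edgeR 4.0.16 (TMM, quasi-likelihood) in R 4.3.3, adjusted over all miRNAs, and tissue and interaction with 1 fit over 12 groups. Levels on log2(RPM + 1) and ratios, with 1 RPM added to each side, were compared by exact permutation tests with pandas 2.3.3, SciPy 1.17.1 and NumPy 2.4.6 in Python 3.11.15. Every member found by name was described, those under 10 counts by range. The 3 most alike miRNAs outside the members were listed for each abundant 3p member, with the marker lists. Members and lists were chosen with earlier results of these data known. Alternatives were DESeq2 1.42.0, limma 3.58.1, RLE, library size, TMM-scaled values, filterByExpr, adjusted p alone, 1 fit, pseudocounts of 0.5 and 10, replicate blocks and each goat left out. Summing copies was not run, since no member had a copy. The fits were tested on simulated data.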

Additional observations from a re-analysis of the deposited data

Results flagged for a closer look

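There were 60 sets of 6 libraries, each a tissue for a member or ratio. In 4 of them a library stood far from the other 5, by the gap to the nearest value as a share of the range. Chance gives about 1 in 20 sets, so 4 of 60 is near what chance gives. The spleen sets below share a library and miR-27b-3p, and so are not independent. In lung, chi-miR-23a-3p of high-altitude goat 3 had 925 RPM, the next being 1476 (gap 0.756 of the range on the log2 scale). In liver, chi-miR-24-5p of low-altitude goat 2 had 15.8 RPM, the next being 7.75 (gap 0.655). In spleen, high-altitude goat 1 had a ratio of miR-24-3p to miR-27b-3p of 0.0162, the next being 0.0744 (gap 0.652), and a ratio of miR-23b-3p to miR-27b-3p of 0.0284, the next being 0.0483 (gap 0.702).

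For chi-miR-23b-3p the high-altitude libraries were all above the low-altitude libraries in liver, by 0.51 on log2(RPM + 1), and all below them in spleen, by -0.58, a difference of 1.09. The difference between this pair of tissues was not tested on its own; the interaction over 6 tissues had an adjusted p of 0.692.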

How the results depend on the processing

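The F test between tissues gave 109 alternative values, in which each member kept its side of the threshold and the counts of calls stayed within 1.5 times. Within tissues, 394 of the alternative fold changes of members kept their direction and side of the threshold, 36 turned direction and 2 became calls. Both calls were chi-miR-27b-5p in muscle, with a log2 fold change of 1.82 by DESeq2 and 1.88 in 1 fit over all libraries, so the members called there were 1 by either.

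Counts of all miRNAs called depended on the test. DESeq2 called 32 in spleen, 29 in heart, 28 in liver, 25 in muscle, 23 in kidney and 18 in lung. The 1 fit over all libraries called 5, 2, 7, 34, 2 and 4 in the same order. filterByExpr called 2 in heart, 6 in liver and 9 in spleen, and library size only 4 in liver and 1 in spleen. Leaving out each goat gave 0 to 10 in heart, 0 to 8 in spleen, 0 to 5 in muscle, 0 to 1 in liver and 0 to 1 in lung. The interaction called 5 with filterByExpr and 0 to 10 with a goat left out.

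Small fold changes turned. With library size only, chi-miR-23a-3p in heart was 0.01, chi-miR-23b-3p in heart 0.00, chi-miR-24-3p in lung -0.01 and in muscle -0.30, and chi-miR-27b-3p in kidney -0.04. In muscle, chi-miR-24-3p was -0.03 with DESeq2, RLE and filterByExpr. For chi-miR-27b-3p, heart was -0.00 with filterByExpr and -0.14 in 1 fit, and liver was 0.08 with DESeq2 and RLE, 0.01 with filterByExpr and 0.06 in 1 fit. chi-miR-23a-3p in lung was 0.10 in 1 fit. With a goat left out, chi-miR-23a-3p ran from -0.02 to 0.49 in liver and -0.23 to 0.08 in lung, chi-miR-24-3p from -0.39 to 0.48 in muscle and chi-miR-24-5p from -0.47 to 0.12 in liver. chi-miR-27b-3p ran from -0.05 to 0.14 in heart, -0.39 to 0.33 in liver and -0.51 to 0.06 in spleen, and chi-miR-27b-5p from -0.07 to 0.36 in lung and -0.15 to 0.44 in spleen. Ratios between altitudes ran, for miR-23a-3p to miR-23b-3p, from -0.17 to 0.25 in heart, -0.12 to 0.26 in kidney and -0.15 to 0.09 over goats. They ran from -0.13 to 0.06 for miR-24-3p to miR-27b-3p in lung, -0.21 to 0.26 for miR-23b-3p to miR-27b-3p in muscle and -0.47 to 0.29 for miR-27b-5p to miR-27b-3p in lung. The cause was not tested.

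With the replicate number as a replicate block, 0 miRNAs were called in muscle and 0 in spleen, and chi-miR-24-3p in muscle was -0.21. Same-numbered libraries of the populations are different goats. Their deviations from group means, in 308 miRNAs, correlated by 0.35 to 0.51 in heart and by -0.46 to -0.11 in kidney. The mean over tissues was 0.07, with tissue means from -0.28 to 0.44. With the goat as a replicate block, 0 tissue pairs passed for chi-miR-23a-3p, chi-miR-23b-3p, chi-miR-24-3p, chi-miR-24-5p, chi-miR-27b-3p, chi-miR-27b-5p and the ratios of miR-24-3p and miR-27b-5p to miR-27b-3p. The smallest p of that test is 0.0312, which passes the adjustment over 15 pairs only where many pairs reach it. On TMM-scaled values 9 pairs passed for chi-miR-24-5p and 8 for chi-miR-27b-5p. Leaving out a goat gave 0 to 3 pairs for the ratio of miR-24-3p to miR-27b-3p and 3 to 8 for that of miR-27b-5p; these ratios and their alternatives were chosen after seeing the data. Below 3 counts, 0.208 to 0.422 RPM, no level could be told from 0, which limits chi-miR-23b-5p. conserve-chi-miR-27a-5p is limited otherwise, having counts of 6 to 287 in 12 of 36 libraries and 0 in the rest.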
